A study of Zea mays with 15 samples.

Results

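The comparison described here sets the 3 arrays taken 48 h after an ethephon spray against the 3 arrays taken 48 h after a water spray, 6 of the 15 maize genome arrays of the series. They were chosen by their labelled treatment and time, and Affymetrix control probe sets were left out of every count of genes. The tissue was internode meristem, taken at the seventh internode, of maize seedlings grown in a greenhouse and sprayed at the jointing stage, when they had 8 leaves. The ethephon group had received 600 mg/L ethephon on 100 seedlings, and the water group plain water on another 100. Both groups shared the greenhouse, the stage and the time of collection, and the series also holds ethephon and water arrays of 24 h and untreated arrays of 0 h (3 each). Each RNA was a pool of 3 seedlings, and the labels call the 3 pools of a group biological replicates. Values are linear MAS5 signals, the brightness of a probe set summarised over its probes, and differences are log2 signal of ethephon minus log2 signal of water. The error given with a log2 difference is its standard error in limma and that given with a signal or ratio is the SD of 3 arrays; per-array values run from replicate 1 to 3. In RNA from whole tissue, fewer cells of a type and less RNA per cell cannot be told apart.

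Ethephon is a synthetic growth regulator that breaks down to ethylene inside plant tissue, and in maize it is sprayed to shorten the stalk. Ethylene switches off receptors in the endoplasmic reticulum membrane that otherwise hold back transcription factors of the nucleus, and crosstalk with jasmonate, abscisic acid and gibberellin is well known. The meristem of a grass internode produces files of cells that divide, elongate and then lay down secondary walls, so DNA replication genes and lignin or secondary wall cellulose genes mark early and late cells along it.

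None of the 10573 probe sets that passed a filter on low signals (a mean over all 15 arrays at or above the 40th percentile, 218.3) was called at 48 h, that is 0.0% at a limma adjusted p of 0.05, and the lowest adjusted p was 0.994. An unadjusted p under 0.05 was given to 343 probe sets (3.24%), 225 higher (2.13%) and 118 lower (1.12%) with ethephon. The 762 genes that could be named from the annotation behaved much like the whole array, with 29 at an unadjusted p under 0.05 (3.81%), a median log2 difference of 0.00 and 50.8% of genes higher. Of the 29, 18 lay higher (2.36%) and 11 lower (1.44%). In 86 of these genes (11.3%) the groups did not overlap, 50 higher (6.56%) and 36 lower (4.72%) with ethephon, and over all probe sets this held for 955 (9.03%), 543 higher (5.14%) and 412 lower (3.9%). A difference of at least 2-fold was seen for 17 higher (2.23%) and 11 lower genes (1.44%), and for 236 higher (2.23%) and 131 lower probe sets (1.24%). Counts of list members below are to be read against these shares, and against 52.8% of probe sets that lay higher. What follows therefore describes levels and their spread, and no gene named below passed the test (lists were counted, not tested).

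The 3'/5' ratio of control transcripts, a sign of RNA integrity, was higher on every ethephon array. The 3'/5' index, the mean log2 ratio of 3' to 5' signal over 5 maize control transcripts, read 2.72, 2.66 and 2.83 on the ethephon arrays and 2.15, 1.62 and 2.38 on the water arrays. All ethephon arrays lay above all water arrays (2.73 ± 0.09 against 2.05 ± 0.39, difference 0.68, two-sided exact permutation p = 0.1, the smallest that 3 against 3 arrays can give). A higher ratio means that the far 5' end of a transcript was represented less. The actin control had 5' signals of 168.7, 195.8 and 181.2 with ethephon and 392.4, 571.8 and 515.7 with water, without overlap, while its 3' signals overlapped. Log2 ratios were 4.87 ± 0.08 against 3.69 ± 0.35 for actin, 4.47 ± 0.42 against 3.23 ± 0.84 for ef1a and 2.17 ± 0.16 against 1.61 ± 0.19 for gapdh, each without overlap (exact permutation p = 0.1, adjusted over the 5 transcripts 0.167). Cyclophilin (0.82 ± 0.13 against 0.64 ± 0.26) and ubiquitin (1.33 ± 0.16 against 1.08 ± 0.39) overlapped (exact permutation p = 0.4 each). The same ratio of 4 bacterial spike transcripts, which are added to the RNA, averaged 3.39 ± 0.52 on ethephon arrays and 3.00 ± 0.21 on water arrays and overlapped (exact permutation p = 0.4). Differences adjusted for this index (added to the fit as a covariate over all 15 arrays) are given below for lists, and for genes with a printed difference over 0.25 in size, where they turned in sign or moved by over 1.5 times, and for a few others. Most smaller differences of single genes are given unadjusted only. The slope of the index in the fit over all 15 arrays rests most on the untreated arrays. There the index spread most (SD 0.78, against 0.09 to 0.39 in the other groups). The part of RNA integrity in the results below was not tested beyond that adjustment.

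**Figure D1:**
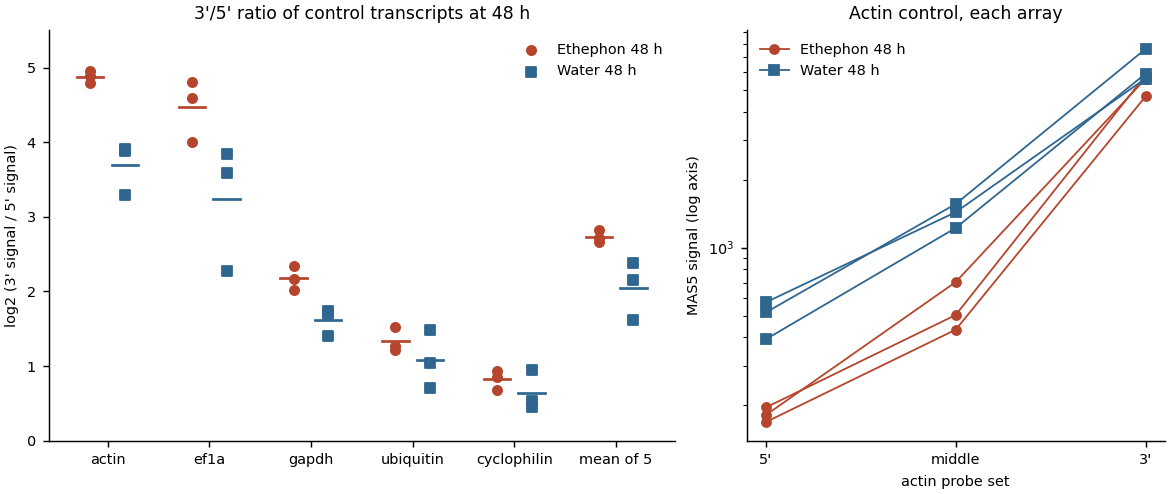
Left, log2 ratio of 3' to 5' MAS5 signal of 5 control transcripts and their mean on each array at 48 h (circles ethephon, squares water, bars group means); right, signals of the 3 actin probe sets on each array (log axis). Ethephon arrays lie above all water arrays for actin, ef1a, gapdh and the mean of 5, and the actin lines part at the 5' end and the middle, not at the 3' end.

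The gene with the lowest p of all named genes was lox1, a lipoxygenase that oxidises polyunsaturated fatty acids. It read 12409.8, 11000.2 and 9607 on the ethephon arrays and 4240.0, 3446 and 4345 on the water arrays, and the groups lay far apart (log2 difference 1.46 ± 0.30, adjusted p = 0.994 in limma). After adjustment for the index the lox1 difference was 1.05. A second lox1 probe set, which may share probes with the first, read 12493, 11027 and 9564 with ethephon against 3846, 3147 and 3797 with water. At 0 h the untreated arrays had averaged 2080 for lox1, so the water arrays of 48 h also lay above the start.

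Genes of the step from fatty acid to jasmonate were less uniform. Allene oxide synthase aos1 had 2868, 4930.2 and 3688 with ethephon and 1906, 3498 and 2142 with water (0.62 ± 0.35), with 1 water array inside the ethephon range. The oxophytodienoate reductase family gene opr5, picked for the largest difference of its family, had 3256, 2141 and 861 with ethephon and 195, 964 and 805 with water (1.77 ± 1.15). Its spread came from the first and second ethephon arrays, which were high, and the first water array, which was low. The other genes of the path lay near 0, with aoc1 at -0.10 ± 0.23, opr7 at -0.01 ± 0.24 and opr8 at 0.02 ± 0.21. Of 7 tested genes of this list 5 lay higher (median 0.11, and 0.61 after adjustment for the index), and lox1 was the 1 whose groups did not overlap.

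Haemoglobin and fermentation genes followed among the higher ones. Hb, a plant haemoglobin that binds oxygen and scavenges nitric oxide, read 4652, 3845 and 4038 with ethephon and 1265, 2498 and 801 with water (1.61 ± 0.39, and 1.82 after adjustment for the index). Pyruvate decarboxylase pdc3, the entry step of ethanol fermentation, had 6865, 6512 and 6127 with ethephon and 2973, 5415 and 2626 with water (0.90 ± 0.32). In both genes the second water array was the highest of its group and still lay below every ethephon array. Alcohol dehydrogenase adh1, the next step, differed by only 0.19 ± 0.17, again without overlap (4346, 4134 and 4082 with ethephon, 4056, 3498 and 3482 with water), and adh2 by 0.53 ± 0.31 with overlap. The rest of the anaerobic list did not go with them, since 6 of 14 genes lay higher (median -0.07, and 0.05 after adjustment for the index). A second haemoglobin, Hb2, lay at -0.46 (-0.94 after adjustment for the index) with all ethephon arrays below the water arrays. The sucrose synthase genes split in sign, with ss2 at -0.35 ± 0.16 and sh1 at 0.44 ± 0.29, and the cytosolic glyceraldehyde phosphate dehydrogenase gpc2 lay at -0.14 ± 0.08.

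Cystatins, which inhibit cysteine proteases, were also high with ethephon. For cpi2 the arrays read 8112, 7243 and 5117 with ethephon and 2093, 3450.1 and 1189 with water (1.71 ± 0.49). Its relative psei1 had 9692, 8475 and 4847 with ethephon and 3990.1, 5626 and 2799.9 with water (0.89 ± 0.35), where the third ethephon array lay inside the water range. The probe set of cpi2 is of a kind that may share probes with related genes, so these 2 genes may share part of their signal, and a second cpi2 probe set lay at 0.94 ± 0.36. The cysteine proteases themselves had a median of 0.06 (0.09 after adjustment for the index), with 4 of 7 higher. Among them cys2 read 7629, 6299 and 6118 with ethephon and 4691, 5903 and 4748 with water (0.39 ± 0.21, no overlap, and 0.61 after the adjustment), while ccp1 lay at -0.34 ± 0.21 (-0.18 after the adjustment).

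Among detoxification genes 1 stood out. The glutathione transferase gst30 read 1172, 268 and 241 with ethephon and 70.3, 15.6 and 92.9 with water (3.18 ± 0.87). The first ethephon array stood above the other two, and all water values lay below the filter level of 218.3, so gst30 was tested only because its ethephon arrays are high, at 24 h above all, and its fold is uncertain. Of the 18 tested glutathione transferases 7 lay higher and 11 lower (median -0.10, and -0.17 after adjustment for the index). After gst30 the highest of the list was gst17 at 0.83 ± 0.42 (1373, 1762 and 754 with ethephon, 640.4, 1165 and 431 with water), and gst1, with about equal signals in both groups, lay at -0.12 ± 0.07. Enzymes against reactive oxygen lay near 0 (5 of 9 higher, median 0.07, and 0.03 after the adjustment), for instance the thioredoxins trh2 (0.11 ± 0.13) and trxh1 (-0.03 ± 0.09).

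Small heat shock and signalling genes completed the higher group. hsp18a, a small heat shock protein, had 2644, 3099 and 2889.5 with ethephon and 1675, 1780.0 and 1151 with water (0.93 ± 0.35), and the disaggregase hsp101 had 520.0, 1015 and 683 with ethephon and 505, 504 and 279.6 with water (0.78 ± 0.33). Both had been higher still at 0 h, with means of 3839 and 3331. Of their list of 11, 6 lay higher (median 0.04, -0.05 after adjustment for the index, and 0.02 to 0.39 with 1 array left out), with the constitutive hsp70-4 at 0.05 ± 0.09 and hsp70-5 at 0.04 ± 0.08. The mitogen-activated protein kinase MPK4 read 707, 564 and 273 with ethephon and 164, 196 and 129 with water (1.57 ± 0.58). MPK4 averaged 163 with water at 48 h, 229 with water at 24 h and 165 untreated. It therefore passed the filter level of 218.3 only because its ethephon arrays are high. Ferredoxin-NADP reductase fnr1 read 2446, 1841 and 1585 with ethephon and 1045, 1566 and 817 with water (0.81 ± 0.26), and further fnr1 probe sets lay at 0.71 ± 0.40 and 0.67 ± 0.40 (1.29 and 1.21 after adjustment for the index). LOC100125659, the ABC transporter behind the low phytic acid mutant lpa1, lay at 0.58 ± 0.22 (0.36 after the adjustment). The seed storage gene gz27, a gamma zein, lay at 0.79 ± 0.25 (944, 695 and 785 with ethephon, 438, 434 and 527 with water). Its other tested probe set lay at -0.02 ± 0.25, and the other 10 genes of the seed list lay below the filter level.

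**Figure D2:**
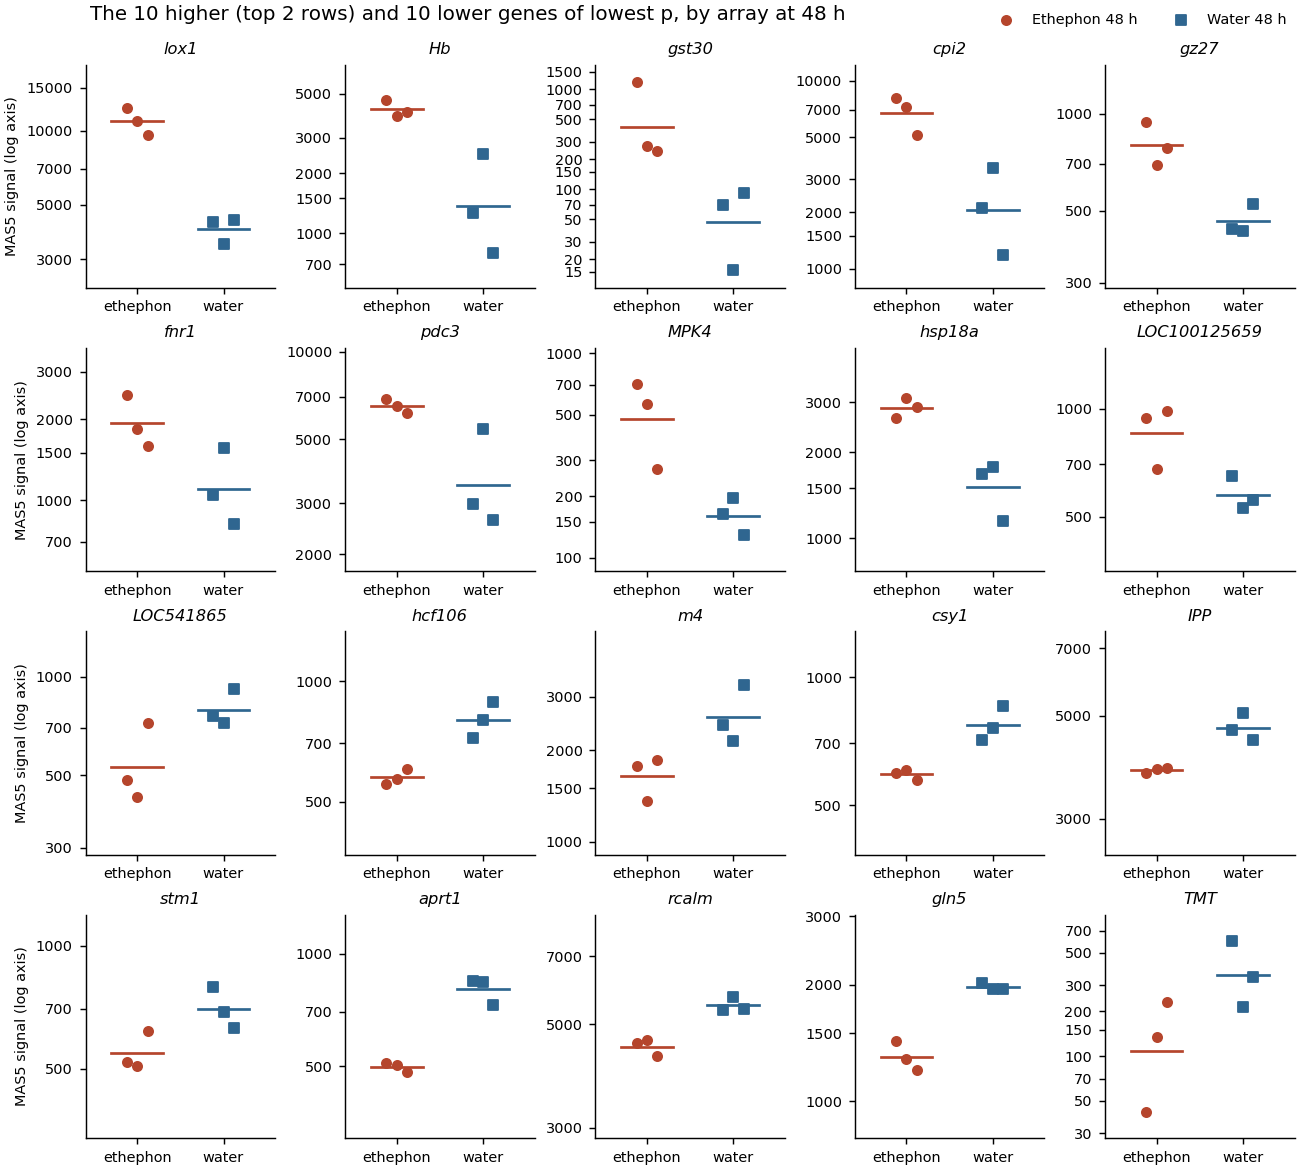
MAS5 signal (log axes, scaled per gene) of the 10 higher and 10 lower named genes of lowest p, 1 point per array at 48 h (circles ethephon, squares water) and bars at the geometric means. The groups overlap in none of the higher genes and in 2 of the lower ones, LOC541865 and TMT, but the genes were picked for their p, so this adds no support.

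Among the 10 lower genes of lowest p the median log2 difference was -0.53, against 1.19 among the 10 higher ones. Adenine phosphoribosyltransferase aprt1, which salvages adenine and also converts cytokinin bases, read 511, 505 and 483 with ethephon and 847, 839 and 729.6 with water (-0.69 ± 0.29). Each group was tight and the gap clear, yet after adjustment for the index the aprt1 difference shrank to -0.29. The cytosolic glutamine synthetase gln5 had 1430.4, 1286 and 1208 with ethephon and 2017, 1943 and 1946 with water (-0.59 ± 0.27, and -0.64 after the adjustment).

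A pair of chloroplast genes stood among them. hcf106, a thylakoid protein of the Tat translocation path, read 554, 571 and 604 with ethephon and 721, 799 and 889 with water (-0.47 ± 0.18, and -0.29 after the adjustment). csy1, the chloroplast SecY channel protein, read 596, 607 and 574 with ethephon and 712, 759.8 and 855 with water (-0.39 ± 0.16, and -0.27 after the adjustment). The MADS box gene m4 lay at -0.64 ± 0.26, the stomatin gene stm1 at -0.36 ± 0.15, IPP at -0.30 ± 0.13 (-0.10 after the adjustment), rcalm at -0.30 ± 0.13 (-0.09 after the adjustment) and LOC541865 at -0.58 ± 0.23. Other IPP probe sets lay at -0.42 ± 0.15 and -0.18 ± 0.12, and at -0.18 and -0.04 after the adjustment. TMT, of the highest p among the 10, lay at -1.70 ± 0.77 (-2.43 after the adjustment), with ethephon values of 42, 134 and 230.3 against 599, 215 and 342 with water. TMT averaged 135 with ethephon at 48 h, 130 with ethephon at 24 h and 215 untreated. It therefore passed the filter level of 218.3 only because its water arrays are high. Of the 10 lower genes 6 had a smaller difference after adjustment for the index, as had 7 of the 10 higher ones. All 20 kept their direction under it, as did 80.2% of all 762 named genes. The 20 were picked for their p on these arrays, so this adds no support.

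Genes of ethylene itself were few on the array. S-adenosylmethionine synthetase sam2, which makes the precursor of ethylene, lay at 0.13 ± 0.10 (12477, 10598 and 11988 with ethephon, 10285, 11011 and 10633 with water). The ACC oxidases, the last step of synthesis, lay below the filter and were not tested. ACO20 had 77.2, 78.9 and 131 with ethephon and 213, 115 and 142 with water, and ACO31 had 94.7, 132 and 94.7 with ethephon and 51.3, 91.9 and 103 with water, overlapping in both. The receptor gene etr2 read 409, 365 and 411 with ethephon and 236, 350.2 and 241 with water, so a narrow gap parted the groups (0.54 ± 0.29). dbf2, of the AP2/ERF family, lay at -0.42 ± 0.28 (-0.27 after adjustment for the index), with 199, 234 and 188 with ethephon and 263, 238 and 336 with water, close to the filter level.

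Other hormone genes differed little or were too dim. The gibberellin gene d3, a cytochrome P450 of ent-kaurenoic acid oxidation, read 232, 178 and 146 with ethephon and 103, 118 and 132 with water (0.64 ± 0.37), and it was tested only through its higher signals at 24 h. The other 4 gibberellin genes lay below the filter. Auxin-binding abp1 (0.11 ± 0.16) and abp4 (0.49 ± 0.35) overlapped between groups. Of 12 cytokinin genes 9 lay higher (median 0.14, and -0.05 after adjustment for the index), with the phosphotransfer proteins hp2 at 0.03 ± 0.25 and HP1 at -0.21 ± 0.27. The type-A response regulator RR7 was lower on every ethephon array (260.4, 269 and 263 with ethephon against 435, 338 and 327 with water, -0.46 ± 0.28, and -0.69 after the adjustment).

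All 5 tested abscisic acid and dehydration genes lay higher (median 0.36, and 0.53 after adjustment for the index), but with wide overlap. vp9 differed by only 0.02 ± 0.22 (-0.11 after the adjustment). The median was that of vp14 (0.36 ± 0.56, and -0.21 after the adjustment). All its 48 h signals lay below the filter level (181, 174 and 84.7 with ethephon, 91.7, 153 and 89.2 with water). The dehydrin dhn1, which protects cells during water loss, read 12069, 4455 and 349 with ethephon and 449, 663 and 406 with water (2.42 ± 1.34). Its first ethephon array was high, the third lay below all water arrays. aba1, also called asr1, had 16572, 14785 and 5085 with ethephon and 5979, 10538 and 9877 with water (0.33 ± 0.48, and 0.53 after adjustment for the index), again with the third ethephon array lowest. Of the 6 tested defence genes 5 lay higher (median 0.32, 0.12 after adjustment for the index, and -0.17 to 0.80 with 1 array left out), such as the phenylpropanoid entry enzyme pal3 at 0.47 ± 0.23 and the benzoxazinoid gene bx6 at 0.21 ± 0.34.

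**Figure D3:**
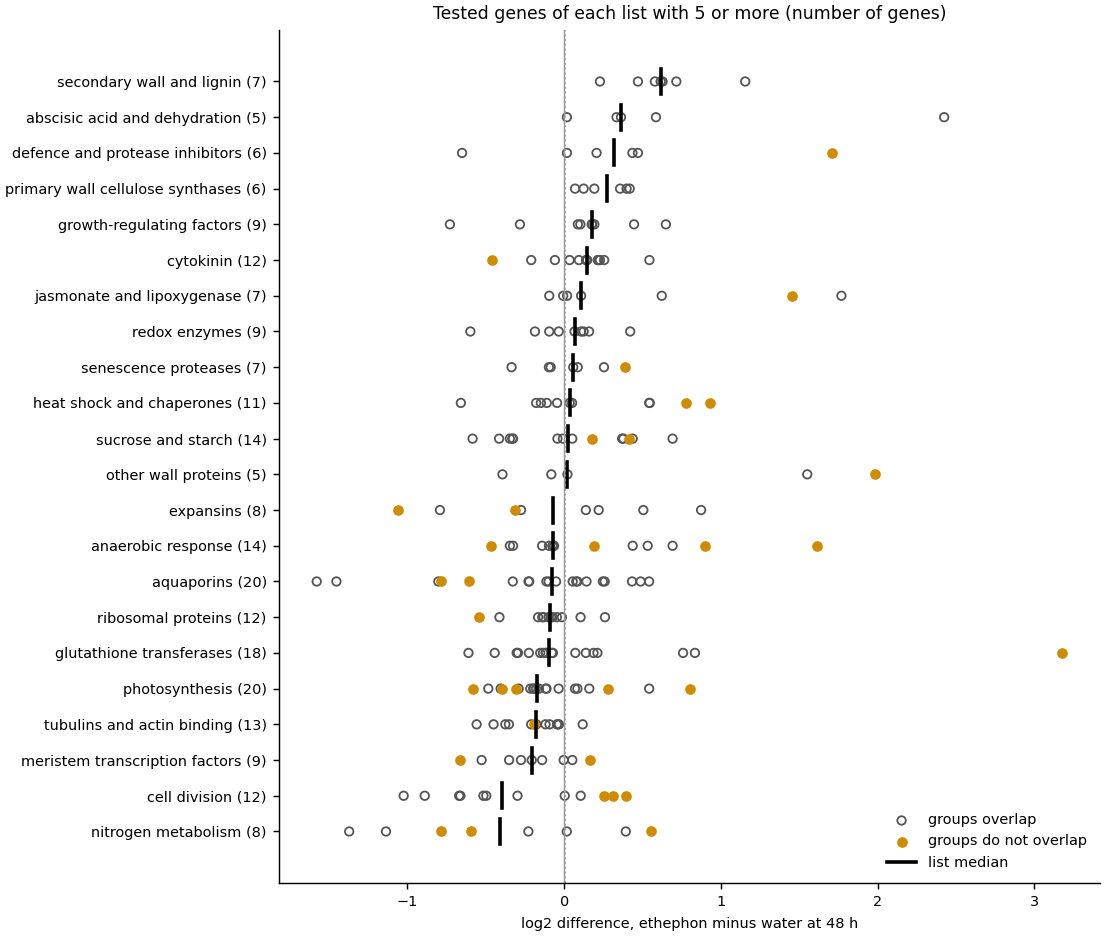
Log2 difference between ethephon and water at 48 h of every tested gene in the 22 lists with 5 or more tested genes; filled points mark genes whose arrays do not overlap, bars the list medians and the dotted line the median of all 762 named genes (0.00). List medians run between 0.62 for secondary wall and lignin genes and -0.41 for nitrogen metabolism, and genes lie on both sides of 0 in every list shown except secondary wall and lignin, primary wall cellulose synthases and abscisic acid.

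Several genes of growth showed a wide spread among arrays of 1 group. All 7 tested secondary wall and lignin genes lay higher with ethephon, with a median of 0.62 (0.00 over all named genes), and none had groups that did not overlap. That median was -0.02 without the first ethephon array and 1.62 without the third, so it rested on single arrays. The secondary wall cellulose synthase cesa10 read 4184, 2333 and 315 with ethephon and 684, 763 and 1332 with water (0.72 ± 1.37, and 1.64 after adjustment for the index). The first 2 ethephon arrays were the highest of all 6 and the third was the lowest. Those 3 arrays held the same places in cesa11 (0.63 ± 1.16, and 1.20 after the adjustment), CesA12 (1.15 ± 1.02, and 1.74 after the adjustment) and the lignin genes 4CL (0.58 ± 0.55) and ccr2 (0.62 ± 1.28). In BM1, a lignin gene at 0.23 ± 0.46, the first ethephon array was highest and the second water array lowest. For the primary wall, 6 of 6 cellulose synthases lay slightly higher (median 0.27, and 0.15 after the adjustment, no gene without overlap; -0.16 with the 48 h arrays alone and the index in the fit), as in cesa7 (0.40 ± 0.32) and cesa6 (0.12 ± 0.25).

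Replication genes ran the other way. The sliding clamp gene pcna1 read 201, 1162 and 2112 with ethephon and 3043, 1514 and 901 with water (-1.02 ± 0.83), and pcna2 303, 1939 and 3044 with ethephon and 2943, 2014 and 1218 with water (-0.67 ± 0.80). The first ethephon array was the lowest of all 6 in both. The replication helicase gene MCM7 lay at -0.89 ± 0.78 with the same array lowest, and the histone his2b5 at -0.52 ± 0.45. Without that array the differences were -0.04 for pcna1, 0.33 for pcna2 and 0.06 for MCM7. Of the 12 tested cell division genes 7 lay lower (median -0.40, and -0.88 to 0.16 with 1 array left out, so the sign rested on single arrays). Those without overlap lay higher, among them the linker histone his1a (10727, 10648 and 10279 with ethephon, 9328, 7565 and 7285 with water, 0.40 ± 0.16) and the D-type cyclin cycD2 (2486, 2279.8 and 2044 with ethephon, 1794, 1782 and 1902 with water, 0.31 ± 0.13). The other was the retinoblastoma-related gene rrb1 (0.26 ± 0.21, and 0.02 after adjustment for the index).

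**Figure D4:**
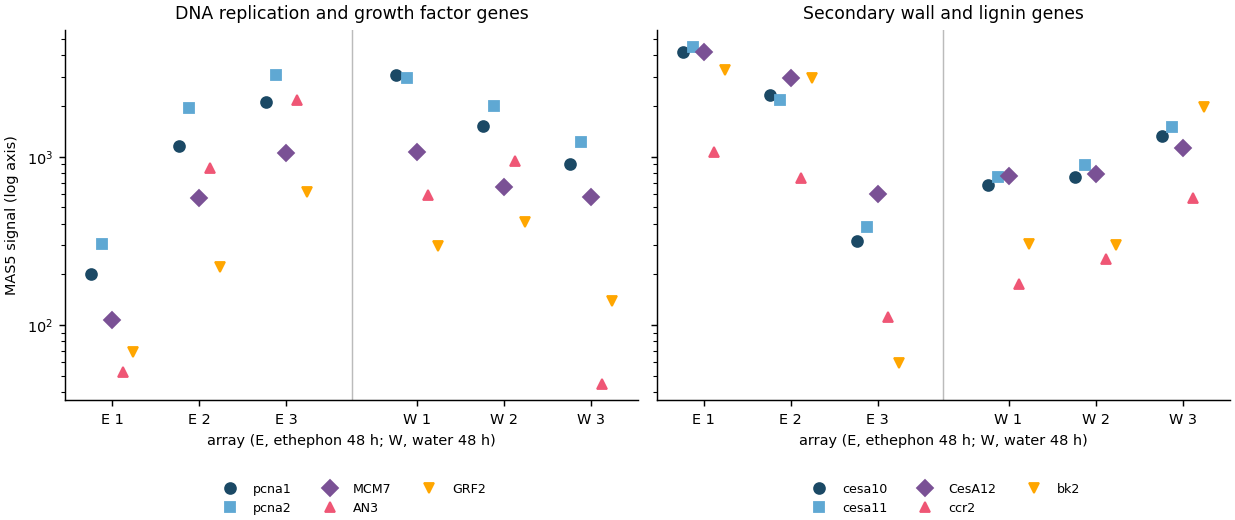
MAS5 signal (log axes) of replication and growth factor genes, left, and of secondary wall and lignin genes, right, on each array at 48 h (E, ethephon; W, water). The first ethephon array has the lowest pcna1, pcna2 and MCM7 signals and the highest cesa10, cesa11 and CesA12 signals, and the third ethephon array has the lowest signals of these 3 wall genes.

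This opposition was also part of the leading pattern among arrays of the same group. The first principal component of the deviations of the 6 arrays from their group means held 52.0% of that variance. The difference between the ethephon and water means held 17.2% of the whole variance of the 6 arrays. Any split of these arrays into groups holds some share, and whether 17.2% exceeds that of an arbitrary split was not tested. Component scores were -0.48, 0.00 and 0.48 on the ethephon arrays and 0.24, 0.15 and -0.39 on the water arrays. Of 12 tested cell division genes 10 and of 9 growth-regulating factor genes 7 had positive values on it, while all 7 secondary wall and lignin genes, all 7 senescence protease genes and 19 of 20 photosynthesis genes had negative ones (371 of 762 named genes were positive). Positive values were not particular to division genes. Ribosomal protein genes (11 of 12), heat shock and chaperone genes (10 of 11) and sucrose and starch genes (10 of 14) were also mostly positive. The extremes were AN3, a growth-promoting transcriptional coactivator, with 52.2, 857 and 2169 on the ethephon arrays and 594, 945 and 44.9 on the water arrays, and bk2, the gene of a brittle stalk mutant, with 3293, 2932 and 59.7 on the ethephon arrays and 304, 298 and 1973 on the water arrays. Across probe sets, which are not independent, r between arrays of different groups ran 0.788 to 0.932 (median 0.853, 9 pairs), and between arrays of the same group 0.766 to 0.914 (median 0.857, 6 pairs).

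Marker sums showed the same spread. The 4 genes of differentiating vascular tissue summed to 18726, 11364 and 3518 (highest to lowest) with ethephon and 8351, 5872 and 4397 with water. For the 8 genes of dividing cells, 3 of them above the filter, the sums ran between 3197 and 7911 with ethephon and between 4234 and 8420 with water. Both meristem markers were present, kn1 at -0.00 ± 0.15 (3927, 3305 and 3982 with ethephon, 4034, 3824 and 3373 with water) and lg3 at -0.66 ± 0.73 (-1.21 after adjustment for the index) with all ethephon arrays below the water arrays, and their sums overlapped (4178 to 4714 with ethephon, 4466 to 5001 with water). Photosynthetic markers (8 genes, of which pep1 and me3 lay below the filter), by sum 24644 to 32883 with ethephon and 25478 to 48974 with water, were also present in tissue labelled as meristem. When the level of the replication markers minus that of the secondary wall cellulose synthases was added as a covariate (a choice made after the values were seen), no probe set was called either. lox1 then lay at 1.35, Hb at 1.67, gst30 at 2.67 and cpi2 at 1.62. All 20 genes of lowest p kept their direction, as did 81.2% of all 762 named genes, and the 20 were picked for their p.

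Wall-loosening and water channel genes were mixed. Expansins, which loosen walls at low pH, lay higher in 4 of 8 (median -0.07, and 0.24 after adjustment for the index). expa1 was lower on all ethephon arrays (1486, 1035 and 706 with ethephon against 2549.7, 1714 and 2256 with water, -1.06 ± 0.60), as was expB8 (3860.2, 4333 and 4499 with ethephon against 4971, 5452.4 and 5319 with water, -0.31 ± 0.17, and -0.18 after the adjustment). expB4 followed the wall genes across arrays instead, with 4932, 3648 and 781 with ethephon and 1683, 1796 and 2942 with water (0.22 ± 0.65). The extensin-type wall protein HRGP read 5705, 3140.5 and 1854 with ethephon and 1651, 1804 and 181 with water (1.98 ± 1.05, and 1.22 after the adjustment), with only a small gap between the third ethephon and the second water array. The xyloglucan endotransglycosylase xet1 read 1732, 420.0 and 29.1 with ethephon and 57.6, 84.1 and 174 with water (1.55 ± 2.11), grp1 lay at 0.02 ± 0.04 and RGP at -0.08 ± 0.16. Of 20 aquaporins 9 lay higher (median -0.08), the plasma membrane channel PIP1-2 at -0.10 ± 0.18 and the tonoplast channel TIP1-1 at 0.25 ± 0.15, and TIP2-1 was low on 4 of 6 arrays (505, 677 and 331 with ethephon, 375, 2279 and 3540.4 with water, -1.58 ± 0.86).

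Cytoskeleton genes leaned one way by small amounts. Of 13 tubulin and actin-binding genes 12 lay lower with ethephon (median -0.18, and -0.15 after adjustment for the index), and the profilin gene PRO4 was the 1 whose groups did not overlap (-0.19 ± 0.15). The alpha tubulin tua4 lay at -0.03 ± 0.10 and the actin depolymerising factor ABP3 at -0.12 ± 0.12. Ribosomal protein genes were also lower in 10 of 12 (median -0.09), as in rps27 (-0.01 ± 0.12) and RPL27A (-0.13 ± 0.12). Over all named genes 375 of 762 were lower.

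Photosynthesis genes lay lower in 14 of 20 (median -0.17), but the median was 0.03 after adjustment for the index. The photosystem I subunit genes psad1 (1396, 1482 and 1226 with ethephon, 1794, 1568 and 3036 with water, -0.58 ± 0.43), psah1 (-0.40 ± 0.27) and psan1 (-0.31 ± 0.24) did not overlap between groups, and the third water array was the highest in each. After the same adjustment they lay at -0.17 for psad1, -0.19 for psah1 and -0.13 for psan1. Cab-m7, a chlorophyll-binding protein, was likewise highest on the third water array (7939, 7668 and 6443 with ethephon, 9869.6, 6430.5 and 14357 with water, -0.41 ± 0.35). The ferredoxin gene fdx3 lay at 0.54 ± 0.24, on the same side as fnr1, whose reductase works with ferredoxin.

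Of 8 tested nitrogen assimilation genes 5 lay lower (median -0.41, and -0.48 to -0.22 with 1 array left out). Beside gln5, the glutamine synthetase gene gln2 was lower on every ethephon array (365, 313 and 474 with ethephon against 945, 489 and 602 with water, -0.79 ± 0.65, and -1.33 after adjustment for the index), and glutamate dehydrogenase gdh1 lay at -0.23 ± 0.19. Nitrite reductase NIR stood opposite with 2761, 2190.3 and 1724 with ethephon and 1344, 1464 and 1670.5 with water (0.56 ± 0.24). For NIR the lowest ethephon array and the highest water array almost met. The thiazole synthesis genes of thiamine, thi2 (-0.28 ± 0.31) and thi1 (-0.50 ± 0.53), lay lower, but at 0.14 and 0.19 after adjustment for the index, so their direction turned. Sucrose and starch genes lay higher in 7 of 14 (median 0.02, and -0.05 after the adjustment). Without adjustment the proton pump gene mha4 (-0.04 ± 0.43) and the transport gene K2 (0.00 ± 0.21) lay near 0. After the adjustment they lay at -0.47 for mha4 and 0.14 for K2. Growth-regulating factors lay higher in 7 of 9 (median 0.18, and -0.04 after adjustment for the index, -0.30 to 0.43 with 1 array left out), GIF2 at 0.18 ± 0.27 and GIF3 at 0.09 ± 0.50, and meristem transcription factors in 2 of 9 (median -0.21, and -0.12 after the adjustment), m19 among the higher at 0.17 ± 0.18.

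Most probe sets had no gene symbol. Of those, the one of lowest p among the higher had 958, 989.6 and 681 with ethephon and 450.4, 457 and 457 with water (0.93 ± 0.18, adjusted p = 0.994 in limma). Next among the higher were 1 at 1.98 ± 0.43 and 1 at 0.70 ± 0.18. The one at 1.98 averaged 147.5 with water at 48 h, 235 with water at 24 h and 216 untreated. It passed the filter only because its ethephon arrays are high. The lower one of lowest p had 339, 289 and 449 with ethephon and 749, 910.4 and 692 with water (-1.14 ± 0.28), followed by 1 at -0.85 ± 0.23 and 1 at -1.05 ± 0.29. In each of these 6 the groups did not overlap, and all were picked for their p.

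The later response was then set beside that of 24 h, which used other arrays. Of the 10 higher genes 9 also lay higher at 24 h, and of the 10 lower genes 8 also lay lower (67.2% of all 762 named genes had the same sign at both times). The exceptions were fnr1 (-0.02 at 24 h) and, among the lower, LOC541865 (0.05) and m4 (0.12). Among those with the same direction, gst30, MPK4 and TMT had passed the filter only through the group where they are high. That filter used the arrays of both times, so the agreement of these genes adds no support. Hb (1.45 at 24 h) and cpi2 (1.31) were much alike at both times, lox1 was smaller at 24 h (0.72 ± 0.30), and gst30 (5.04), etr2 (1.08) and d3 (1.71) were larger there. The ethephon means of lox1 were 9258 ± 2016 at 24 h and 11006 ± 1402 at 48 h, and its water means 5920.4 ± 2857 at 24 h and 4011 ± 491 at 48 h. For lox1 the first water array of 24 h lay inside the ethephon range (9216, 4401 and 4144 with water, 6933, 10322 and 10519 with ethephon). The smaller difference at 24 h thus rested in part on 1 array. The change of the difference between the 2 times was called for 0 of 10573 probe sets (limma, 98 with an unadjusted p under 0.05, 0.927%), so no shift between the times passed the test. Between lists, secondary wall and lignin genes lay higher in 7 of 7 at both times (median 1.20 at 24 h). In cesa10, cesa11, CesA12, ccr2, BM1 and 4CL the third ethephon array of 24 h was the highest of that time, and in pal3 it was not. For cesa10 the 24 h arrays read 182, 90.7 and 5020 with ethephon and 176, 340 and 114.5 with water, so that difference rested on 1 array. Senescence proteases lay higher in 7 of 7 at 24 h (0.53) and 4 of 7 at 48 h, and growth-regulating factors in 2 of 9 at 24 h (-0.56) and 7 of 9 at 48 h. The change was not called for any gene of these lists.

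**Figure D5:**
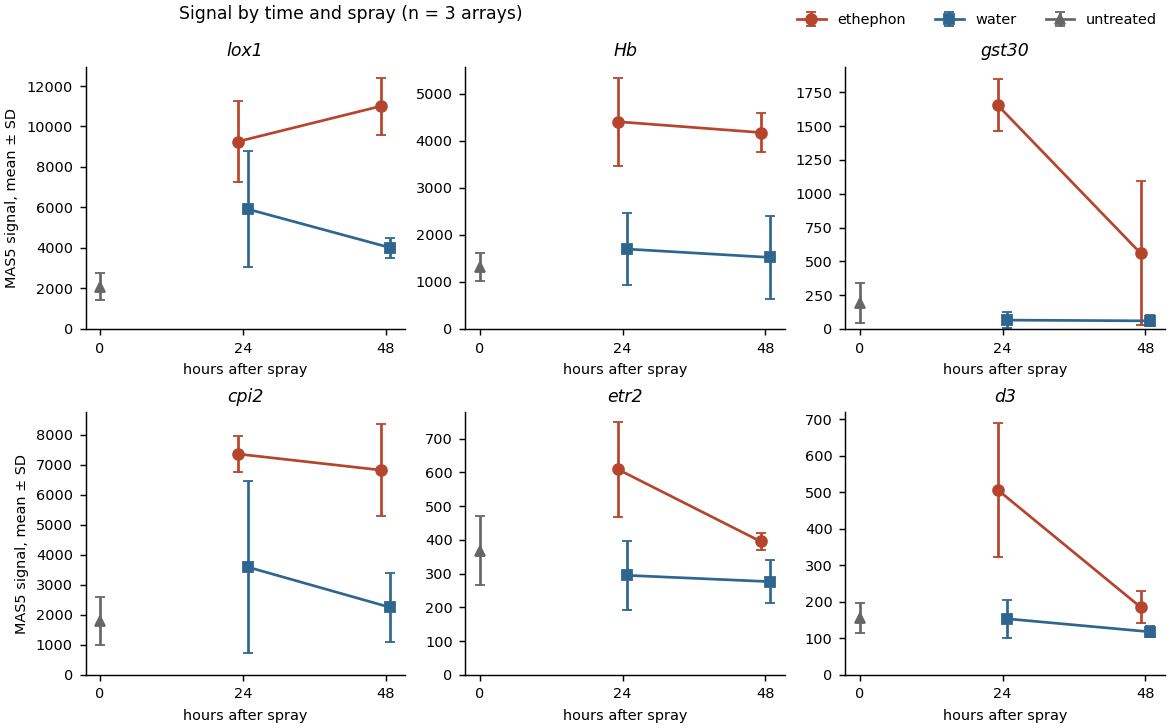
Mean MAS5 signal ± SD (n = 3 arrays) of 6 genes in untreated meristem at 0 h and after ethephon or water at 24 and 48 h. At 48 h the ethephon mean lies above the water mean in all 6 genes, and the ethephon means of gst30, etr2 and d3 are higher at 24 h than at 48 h.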

How the data were processed

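RNA of 15 maize seedling samples was hybridised to Affymetrix maize genome arrays after biotin labelling of 200 ng total RNA, per the labels' protocols. The deposited values are linear intensity signals per probe set, computed by the authors with MAS5 per the submitters' processing notes; its version and scaling target are not given in the sources used here. A summary over 3' probes weights the 3' end of transcripts, so RNA integrity can move it. Groups came from the sample titles.

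Signals were used as deposited and put on the log2 scale without an offset. After leaving out 113 control probe sets, 10573 of 17621 probe sets at or above the 40th percentile of mean signal were kept. One limma model (3.58.1, R 4.3.3) with 5 groups, eBayes with trend, residual degrees of freedom 10, gave ethephon minus water at 48 h, with Benjamini-Hochberg adjustment over all kept probe sets and a threshold of 0.05. The fit was checked on simulated data. Exact permutation tests, summaries and figures used Python 3.11.15, pandas 2.3.3, numpy 2.4.6, scipy 1.17.1 and matplotlib 3.10.9.

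Gene symbols came from the platform annotation, updated through RefSeq gene records. 1452 probe sets had exactly 1 gene, 1 had several and 16168 had none; a gene with several kept probe sets was represented by the brightest. Named genes were the 10 higher and 10 lower of lowest p, the 2 brightest tested members of each list, the genes of ethylene synthesis and perception, and the 3 higher and 3 lower probe sets of lowest p without a symbol; other genes were named after their values were seen. The members and the gene lists were chosen with earlier results of these data known. Alternatives were filters, scaling, an offset, array weights, a robust fit, a replicate block, the 3'/5' index as a term, only the 48 h arrays and each array left out.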

Additional observations from a re-analysis of the deposited data

How the results depend on the processing

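With 3 arrays a group, a 3'/5' index that is higher on every ethephon array and division and wall markers that vary within both groups, the comparison has few ways to set small differences apart, and the part of the index and the markers was not tested beyond the fits given here. Low signals, such as those of gst30 and d3, carry wide errors on the log2 scale. Unless 1 array was left out, no probe set was called by limma under any alternative. Leaving out each array in turn gave 0 to 1 calls, the 1 being a probe set without a gene symbol, called without the first water array. Probe sets with unadjusted p under 0.05 numbered 343 and came to 539 without a filter, 740 with array weights, 742 with the 48 h arrays alone and the index as a term, and 194 (without the first ethephon array) to 651 (without the third) with 1 array left out, and 212 without the third water array. The median log2 difference of all tested probe sets, 0.02, was -0.032 after median scaling, -0.023 with array weights and -0.053 with the index. Probe sets whose groups do not overlap numbered 955, and 1474 without a filter, and genes with several probe sets that differ in sign numbered 32 of 106, and 103 of 222 without it. The 3'/5' index, ethephon minus water at 48 h, was 1.18 from actin alone, 1.24 from ef1a, 0.18 from cyclophilin and 0.25 from ubiquitin, and 0.47 to 0.85 with 1 array left out. Arrays were not treated as paired by replicate number. The deviations of same-numbered ethephon and water arrays correlated at -0.384, 0.289 and -0.451. Deviations from a mean of 3 arrays depend on each other, so these values cannot settle whether the arrays were paired by design. With the replicate number as a block, limma called 0 probe sets and gave 361 an unadjusted p under 0.05, and no call changed.

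By list, the main median log2 difference in parentheses, the values that moved most against the spread between arrays were as follows. For cytokinin (0.14) it was -0.013 with the stricter filter, 0.073 with array weights, -0.054 with the index as a term, 0.057 with the 48 h arrays and the index, 0.057 to 0.20 with 1 array left out. For jasmonate and lipoxygenase (0.11) it was 0.32 with the stricter filter, 0.61 with the index as a term. For defence and protease inhibitors (0.32) it was 0.94 with the 48 h arrays and the index. For redox enzymes (0.066) it was 0.23 with the 48 h arrays and the index. For anaerobic response (-0.069) it was 0.025 with array weights, 0.046 with the index as a term, -0.087 to 0.040 with 1 array left out. For aquaporins (-0.076) it was -0.28 with the marker term, -0.13 to 0.15 with 1 array left out. For primary wall cellulose synthases (0.27) it was -0.16 with the 48 h arrays and the index. For secondary wall and lignin (0.62) it was -0.018 to 1.62 with 1 array left out. For tubulins and actin binding (-0.18) it was -0.45 with the 48 h arrays and the index. For meristem transcription factors (-0.21) it was -0.47 with the 48 h arrays and the index, -0.40 to -0.077 with 1 array left out. For photosynthesis (-0.17) it was -0.67 with the 48 h arrays and the index. For sucrose and starch (0.021) it was -0.33 with the stricter filter, 0.28 with the marker term, -0.19 to 0.27 with 1 array left out. With 1 array left out, the medians of the other lists ran 0.17 to 0.72 for abscisic acid and dehydration, -0.88 to 0.16 for cell division, -0.17 to 0.80 for defence and protease inhibitors, -0.20 to 0.17 for expansins, -0.18 to 0.014 for glutathione transferases, -0.30 to 0.43 for growth-regulating factors, 0.024 to 0.39 for heat shock and chaperones, 0.057 to 0.26 for jasmonate and lipoxygenase, -0.48 to -0.22 for nitrogen metabolism, 0.0024 to 0.14 for other wall proteins, -0.33 to -0.0008 for photosynthesis, 0.081 to 0.40 for primary wall cellulose synthases, -0.037 to 0.11 for redox enzymes, -0.18 to -0.0082 for ribosomal proteins, -0.14 to 0.31 for senescence proteases, -0.25 to -0.035 for tubulins and actin binding. With the index as a term the median also turned in sign for growth-regulating factors (-0.040), heat shock and chaperones (-0.046), expansins (0.24), photosynthesis (0.034), thiamine (0.16) and sucrose and starch (-0.050).

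After median scaling the sign turned for hp2 -0.016, hsp70-4 -0.0001, hsp70-5 -0.015, grp1 -0.030 and K2 -0.048. With array weights the sign turned for hp2 -0.027, HP1 0.037, hsp70-5 -0.051, GIF3 -0.13, rps27 0.0056, K2 -0.099 and gz27 (second probe set) 0.16. With the index as a term the sign turned for hp2 -0.34, hsp70-4 -0.046, BM1 -0.041, tua4 0.035, GIF2 -0.083, GIF3 -0.097, thi2 0.14, thi1 0.19 and gz27 (second probe set) 0.072. With the 48 h arrays and the index the sign turned for HP1 0.49, trxh1 0.091, cesa6 -0.64, BM1 -0.62, kn1 0.062, rps27 0.28, 4CL -0.098 and bk2 -0.26. With the marker term the sign turned for aba1 -0.046, gst12 0.044, expB4 -0.22, BM1 -0.10, rps27 0.069, cesa10 -0.49, cesa11 -0.45, ccr2 -0.42, bk2 -1.15 and xet1 -0.34. After quantile normalization the sign turned for grp1 0.0000 and K2 -0.052. With 1 array left out the sign turned in at least 1 case for abp1 (-0.050 to 0.26), hp2 (-0.078 to 0.13), HP1 (-0.43 to 0.028), bx6 (-0.11 to 0.45), hsp70-5 (-0.0043 to 0.086), PIP1-2 (-0.29 to 0.061), expB4 (-0.30 to 1.03), cesa6 (-0.10 to 0.36), BM1 (-0.12 to 0.60), RGP (-0.20 to 0.026), tua4 (-0.11 to 0.022), ABP3 (-0.22 to 0.025), his2b5 (-0.90 to 0.11), GIF3 (-0.44 to 0.43), kn1 (-0.077 to 0.083), rps27 (-0.094 to 0.079), mha4 (-0.39 to 0.18), K2 (-0.10 to 0.15), gz27 second probe set (-0.12 to 0.16), pcna2 (-1.33 to 0.33), MCM7 (-1.59 to 0.060), AN3 (-0.71 to 2.22), cesa10 (-0.047 to 1.82), cesa11 (-0.14 to 1.64), ccr2 (-0.018 to 1.62) and bk2 (-0.43 to 2.46). The marker term is built from pcna1, pcna2, cesa10, cesa11 and CesA12 themselves. The cause of the other turns was not tested.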

Other observations

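A probe set without a gene symbol, picked after its values were seen, read 1745, 1183 and 1296 with ethephon and 1518, 25.9 and 22.2 with water (log2 difference 3.86 ± 1.14), and it was the 1 called by limma without the first water array. The first water array lay among the ethephon arrays and the other water arrays lay far below them.

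gl1, a gene of leaf wax synthesis, had 1489, 459.5 and 119 with ethephon and 53.9, 184 and 204 with water (1.78 ± 1.09), and bx1, the first gene of benzoxazinoid synthesis, had 174, 1783 and 2199 with ethephon and 1544, 2105 and 203 with water (0.02 ± 1.31). Both were singled out for their large spread among arrays of a group, after their values were seen, and both overlap between the groups.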
